A study of Homo sapiens with 12 samples.

Results

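The nuclear genes for the subunits of the mitochondrial respiratory chain and ATP synthase were examined for peaks of N4-acetylcytidine (ac4C), an acetylated form of the RNA base cytidine. Genes were taken by symbol from the human RefSeq gene table (GRCh38.p14): protein-coding nuclear genes starting with NDUFA, NDUFB, NDUFC, NDUFS, NDUFV, UQCR, COX4I, COX5, COX6, COX7, COX8 or ATP5, together with SDHA, SDHB, SDHC, SDHD and CYC1. This gave 97 of 20033 genes. They comprised 38 genes of complex I, 4 of complex II, 10 of complex III, 17 of complex IV, 20 of ATP synthase (complex V) and 8 genes for factors that assemble complex I, whose symbols start with NDUFAF. COXFA4 and COXFA4L2, formerly NDUFA4 and NDUFA4L2, have symbols outside the rule, and no library listed a peak in either gene.

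Complexes I to IV sit in the inner mitochondrial membrane and pass electrons from NADH and succinate to oxygen. Complexes I, III and IV pump protons as they do so, and ATP synthase uses the returning protons to make ATP. A few hydrophobic subunits are encoded by mitochondrial DNA, while all others, including every subunit of complex II, are nuclear genes whose mRNAs are translated outside the mitochondrion. NAT10 is the acetyltransferase that places ac4C on RNA.

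The cells were SW620, a human colorectal cancer line, carrying either a control short hairpin RNA (shControl) or one against NAT10 (shNAT10). Both were stable lines made with lentivirus, and which of the study's NAT10 hairpins was used is not given in the sources used here. Fragmented RNA was immunoprecipitated with an anti-ac4C antibody and sequenced, and 3 control and 3 NAT10-knockdown immunoprecipitation libraries each came with 1 list of peaks limited to mRNA. Their input libraries were not analysed here, and nothing states that replicates came from separate cultures, so p-values measure only the spread between these libraries.

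A library held 17877 to 28752 peaks, and knockdown replicate 1 held the most. The lists give positions, strands and a score for each peak, but no read counts, so depth is unknown and a peak reports neither the amount of an mRNA nor the fraction of its copies that is modified. The score was used only as a percentile within its library, the rank of a peak among all peaks of that library, where 100 is the highest. Between 7.85% and 14.1% of a library's peaks tied at a score of 3100 or lay above it, so the most highly scored peaks cannot be ordered. Peaks in the NAT10 gene numbered 1, 0 and 2 in the control and 2, 0 and 1 in the knockdown libraries, which does not measure its mRNA and so checks nothing about the knockdown. A peak was assigned to a gene when its midpoint lay within the gene span on the same strand.

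Several of these genes carried a peak over the very start of the transcript in all 6 libraries. The sequence used here came from the promoter table of RefSeq, which reaches 50 bases past a listed start, so bases are shown at starts and not under other peaks. Of 78 genes with a start listed in the RefSeq promoter table, 14 (17.9%) had a listed start under a peak in every library, beside 13.5% of 15811 protein-coding genes. In 11 of them the start taken was the outermost one. In NDUFB11, ATP5PF and ATP5MC2 it was a start 789, 599 and 5093 bases further downstream. The peaks of NDUFB11 and ATP5PF reached 802 and 619 bases before the start taken, and so covered the outermost start too. The first 30 transcribed bases are given here for 1 gene of each complex where the start taken was the outermost one. Complex V had no such gene. Another complex I subunit and an assembly factor are added. Bases are in the sense orientation (GRCh38.p14), with cytosines, the base that can carry ac4C, in capitals. They show which cytosines lie next to the start, and no file tells which of them, if any, was acetylated.
NDUFA10 (chr2:240025313-240025342, minus strand): gCgtCCCCttgggtCCttgatCCtgagCtg
NDUFS6 (chr5:1801407-1801436, plus strand): agCggCgCaaaatggCggCggCgatgaCCt
SDHA (chr5:218320-218349, plus strand): agggaCtggCgggaCtgCgCggCggCaaCa
UQCR11 (chr19:1605433-1605462, minus strand): agtgtagCCgggtCagCtggaCagggtCat
COX5A (chr15:74938044-74938073, minus strand): aaCCCgCgagCttaCaCCggCttCtCtCtg
NDUFAF2 (chr5:60945205-60945234, plus strand): aCCCCtaCtgCgggtCCCgCtgCtggCagC
These 30-base stretches held between 6 cytosines in UQCR11 and 13 in NDUFAF2. Over the first 50 bases, cytosine made up a median of 30% in the 14 genes and 30% in the 2139 protein-coding genes with a start under a peak in all 6 libraries. At outermost starts, under a peak or not, the median was 26% in the 78 members and 30% in all 15811 genes. The letters CCG, searched on the sense strand only because ac4C lies on the RNA, were found in the first 50 bases of 11 of the 14 genes (78.6%), 80.5% of the 2139 genes and 64.3% of all 15811 outermost starts. Among the 78 outermost starts of the members, 55 (70.5%) held them, so the 14 genes lay little above the members as a whole.

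At least 1 library listed a peak in 53 of the 97 genes (54.6%), beside 60.3% of all protein-coding genes, and 25 (25.8%) had one in all 6 libraries, beside 29.4%. Another 28 genes had a peak in 1 to 5 libraries and 42 in none. The strand of NDUFB9 and of the read-through gene ATP5MF-PTCD1 could not be set, so neither was counted. Within the NDUFB9 span, 6 peaks lay on the minus strand, 1 in each library, and 2 on the plus strand, both in control replicate 1. Within ATP5MF-PTCD1, 21 peaks lay on the minus strand, as many in each library as in PTCD1, the gene it reads into, and 10 on the plus strand.

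**Figure D1:**
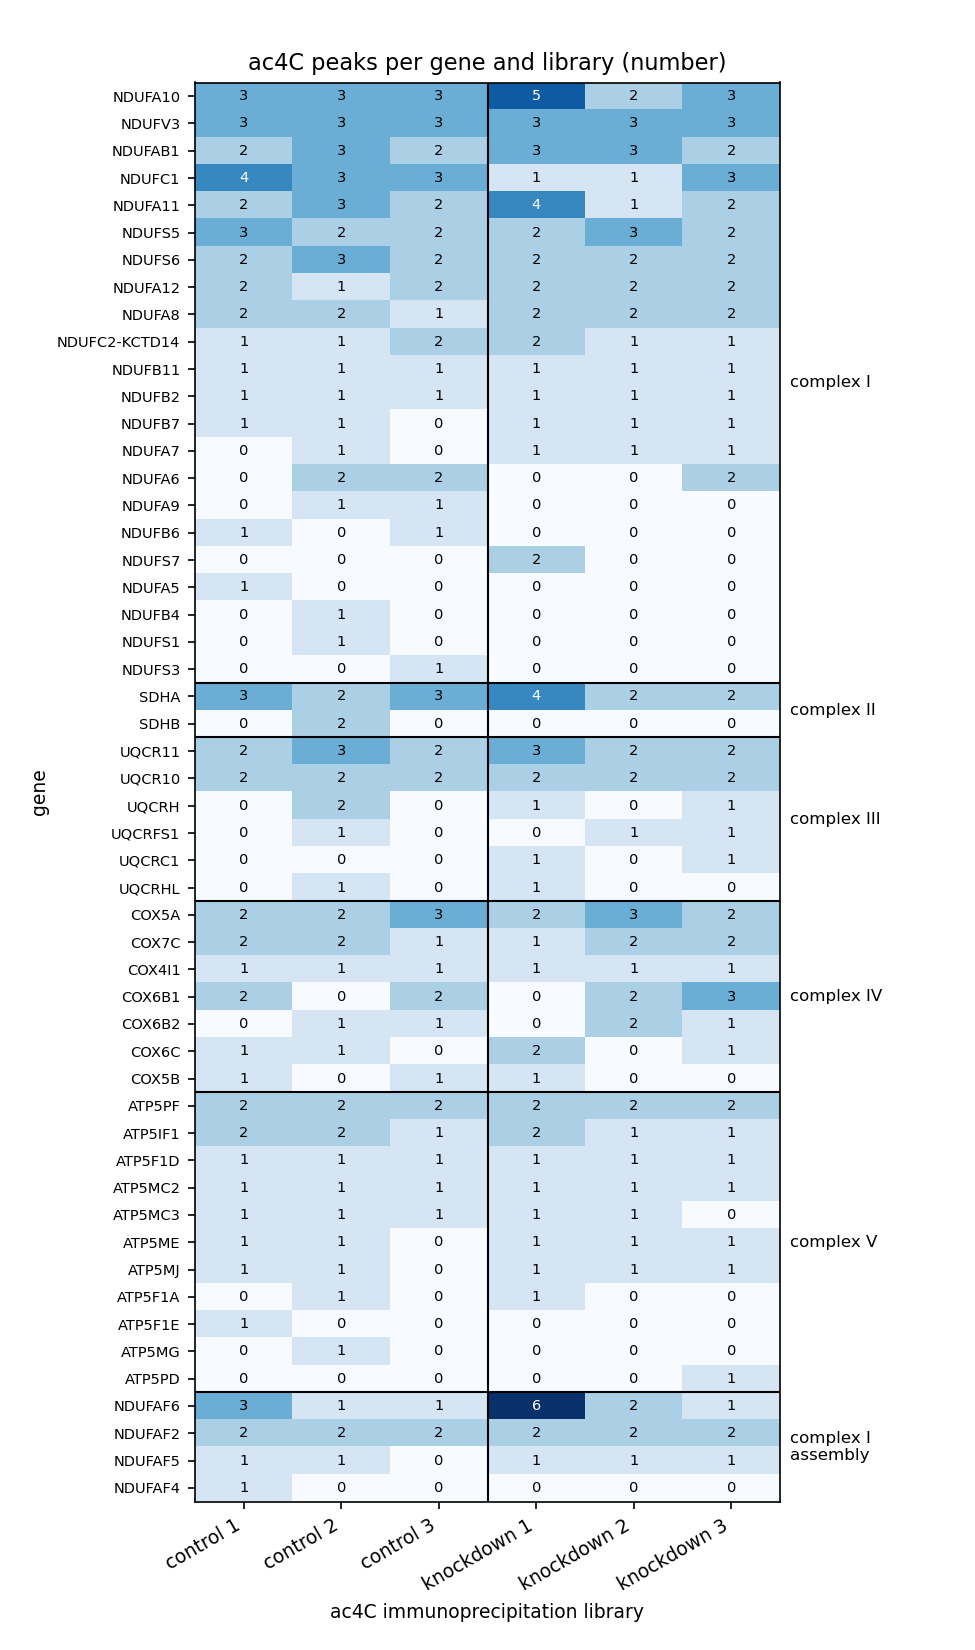
Number of ac4C peaks in each gene (rows, grouped by complex) and library (columns, control left and knockdown right of the line), for 52 of the 53 genes with any peak. NDUFV3 had 3 peaks in every library, SDHA 2 to 4, and no gene had a peak in every library of one group but in no library of the other.

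Respiratory chain genes are short, and gene span went with the presence of a peak. Their median span was 9936 bases, beside 24130 for all protein-coding genes. Members with a peak had a median span of 11154 bases and those with no assigned peak, here with NDUFB9 and ATP5MF-PTCD1 among them, 7860 bases. Among genes under 5 kb, 8 of 23 members (34.8%) and 32.5% of all genes had a peak in any library. From 5 to 10 kb the shares were 61.5% and 52.8%, from 10 to 20 kb 60% and 62.2%, from 20 to 50 kb 53.3% and 69.4%, and at 50 kb or more 75% (6 of 8) and 69.5%. Genes that SW620 cells do not transcribe are among all protein-coding genes, and RNA levels were not measured in these lists.

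Of all peaks assigned to them over the 6 libraries, 41.2% had their midpoint in the first 20% of the gene span, beside 33.9% over all genes. The share in each library ran from 37.5% to 44.4%, and it was above that of the other genes in all 6 libraries, where it ran from 30.4% to 36.5%. The libraries list many of the same regions, so they do not count as 6 separate results. Genes of like span were not compared. By complex the share was 41.8% in complex I, 61.1% in complex II, 54.1% in complex III and 40.6% in the assembly factors, while complex IV, at 34.6%, was near the share over all genes and complex V, at 30.2%, was below it and had as many peaks in the last 20% of the span. The complex II share rests on 18 peaks, 16 of them in SDHA. A gene span includes introns, so this position is along the gene and not along the mRNA. Median peak width was 201 bases, beside 206 over all genes. The median score percentile of the peaks was 63.9, beside 49.5 over all genes.

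Peaks of the 6 libraries that shared at least 1 base on the same strand were merged into regions. The respiratory chain genes held 106 regions, of which 34 (32.1%) were shared by all 6 libraries and 30 (28.3%) were found in a single one, beside 21.9% and 38.7% over all 40444 regions in genes. In 23 of the 34 regions shared by all libraries the peak had the same first and last base in each. The share of member regions that a pair of libraries had in common, over those found in either, averaged 0.604 over the 6 pairs within groups (0.561 to 0.739) and 0.631 over the 9 pairs between groups (0.566 to 0.685), so on average libraries of different groups shared no fewer regions than libraries of one group.

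The number of respiratory chain genes with a peak did not differ between control and NAT10-knockdown cells by more than the spread between replicates. The control libraries had 37, 43 and 33 such genes and the knockdown libraries 38, 34 and 38. The means were 37.7 ± 5.03 and 36.7 ± 2.31 (SD, n = 3; two-sided exact permutation test, p = 1, where 3 against 3 cannot go below 0.1). The genes held 63, 70 and 56 peaks in the control and 72, 55 and 60 in the knockdown libraries (63 ± 7 and 62.3 ± 8.74, SD, n = 3; exact permutation p = 0.9). As a share of all peaks of a library this was 0.345%, 0.309% and 0.279% in control and 0.250%, 0.308% and 0.315% in knockdown cells (0.311% ± 0.0332 and 0.291% ± 0.0354, SD, n = 3; exact permutation p = 0.5). The lowest share was in knockdown replicate 1, the library with the most peaks. The median score percentile of the member peaks was 62.3 ± 5.70 in control and 64.0 ± 6.93 in knockdown libraries (SD, n = 3; exact permutation p = 0.8). The sign of the differences in genes, peaks and median percentile turned when some single libraries were left out. The difference in share rose at most to 1.04e-05 percentage points, which is nil in effect.

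By complex, none of the 6 comparisons passed the test. Complex I genes with a peak numbered 16, 19 and 17 in the control and 16, 15 and 16 in the knockdown libraries, the smallest p of the 6 tests (17.3 ± 1.53 and 15.7 ± 0.577, SD, n = 3; exact permutation p = 0.3, adjusted p = 1 over the 6). With every list cut to equal length by score, or without control replicate 1, the groups did not overlap in complex I (differences of -1.33 and -2.33 genes, exact permutation p = 0.1 in each, the smallest possible). Other settings weakened it: the difference was -1 with the higher-scored 50% of each list (exact permutation p = 0.7) and -1.33 with any overlap (p = 0.5). Without control replicate 2 the difference was -0.83 (exact permutation p = 0.6), beside -1.67 with all libraries. Complex III genes numbered 2, 5 and 2 in the control and 5, 3 and 5 in the knockdown libraries (3 ± 1.73 and 4.33 ± 1.15, SD, n = 3; exact permutation p = 0.4, adjusted p = 1). The difference of 1.33 genes became 2.33 without control replicate 2, 2 without knockdown replicate 2 and 0.83 without control replicate 1 or control replicate 3. Complex IV genes numbered 6, 5 and 6 against 5, 5 and 6, and complex V genes 8, 9 and 5 against 8, 7 and 7. For complexes II, IV and V and the assembly factors the exact permutation p was 1.

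**Figure D2:**
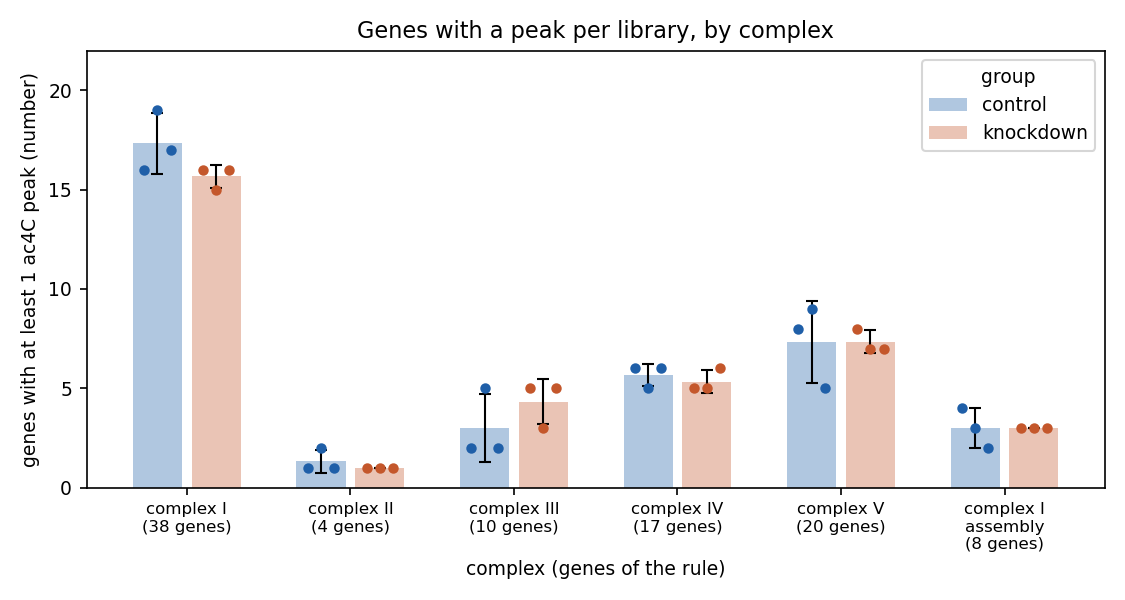
Number of genes with at least 1 ac4C peak in each complex, with the number of genes of the rule under each name. Points are libraries, bars the mean and error bars the SD of 3 control (blue) and 3 knockdown (orange) libraries, which overlap in every complex.

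No respiratory chain gene had a peak in every library of one group but in no library of the other (0 of the 53 with any peak), a call met by 0.696% of the 12076 protein-coding genes that had any peak at all. A difference of at least 2 libraries was found for 4 genes, 2 in each direction. NDUFA9 and NDUFB6 had more control libraries (2 of 53, 3.77%, beside a background of 4.16%) and UQCRC1 and NDUFA7 more knockdown libraries (2 of 53, 3.77%, beside 3.51%). These shares were near those over all genes, and none of the 4 genes passed Fisher's exact test (two-sided p = 0.4 for each, where the smallest possible is 0.1). Among the 106 regions none was specific to a group, beside 0.341% of all regions for control and 0.828% for knockdown. At least 2 more control libraries had a peak in 3 regions (2.83%, beside 4.05% over all regions), in NDUFB6, NDUFC1 and SDHA. At least 2 more knockdown libraries had one in 2 regions (1.89%, beside 5.99%), in NDUFA7 and ATP5MJ.

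In complex I, which takes electrons from NADH, core subunits carry the flavin, the iron-sulphur clusters and the quinone site, and accessory subunits surround them. Of the 30 accessory subunit genes, 18 had a peak in any library and 11 in all 6. Beside those described below these were NDUFA8, NDUFA11, NDUFA12, NDUFB2, NDUFB11, NDUFS5 and NDUFS6. NDUFB7 had a peak in 5 libraries.

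The complex I genes with the most peaks over the 6 libraries were NDUFA10 with 19, NDUFV3 with 18, and NDUFAB1 and NDUFC1 with 15 each. NDUFA10, an accessory subunit of the membrane arm, had 3, 3 and 3 peaks in the control and 5, 2 and 3 in the knockdown libraries. Its highest peak lay at score percentiles 84.6, 79.5 and 74.4 in the control and 67.3, 74.3 and 77.2 in the knockdown libraries, and the groups overlapped. The 84.6 came from a region near the 3′ end, at chr2:239895205-239895314, and the other values from the peak over its start. The peak over its start, from 60 bases before it to 115 bases after it, had the same ends in all 6 libraries, as did a second region centred 3086 bases downstream. NDUFV3, an accessory subunit of the NADH-oxidising module, had 3 peaks in each library, at its start and centred 3678 and 17466 bases from it, the last near the 3′ end of the 19991-base gene. Its highest peak lay at 75.9, 80.6 and 72.0 in the control and 92.7, 82.8 and 77.9 in the knockdown libraries (76.1 ± 4.32 and 84.5 ± 7.56, SD, n = 3; exact permutation p = 0.2). NDUFAB1, the mitochondrial acyl carrier protein that also serves fatty acid synthesis, had 2, 3 and 2 peaks in the control and 3, 3 and 2 in the knockdown libraries. Its percentiles of 52.6, 71.4 and 33.9 in the control and 73.5, 63.8 and 52.5 in the knockdown libraries overlapped.

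NDUFC1, a small accessory subunit of the membrane arm, was the single member whose score percentiles did not overlap between the groups. Its highest peak lay at 76.7, 70.9 and 55.9 in the control and at 8.3, 44.7 and 49.6 in the knockdown libraries. Every control library was thus above every knockdown library (67.8 ± 10.7 and 34.2 ± 22.6, SD, n = 3; difference -33.7 percentile points, exact permutation p = 0.1, the smallest possible, before any adjustment). Without knockdown replicate 1, which gave the value of 8.3, the difference was -20.7. This was 1 of the 25 members with a peak in all 6 libraries (4%), beside a background of 4.59% of 5883 genes that lay lower in every knockdown library. None of the 25 lay higher in every knockdown library, beside 4.9%. The number of NDUFC1 peaks was 4, 3 and 3 in the control and 1, 1 and 3 in the knockdown libraries (exact permutation p = 0.3). The values come from different places in the gene. The region at chr4:139295732-139295960 was found in each control library (64.8, 70.9 and 55.9) and also in knockdown replicates 2 and 3 (44.7 and 49.6), and the value of 76.7 came from a 609-base region found in control replicate 1 alone. A second region, at chr4:139292530-139292609, was found in each control library and also in knockdown replicate 3. With peaks counted on either strand, which adds those of NAA15 on the opposite strand, the difference turned to 4.60. With the higher-scored 50% of each list NDUFC1 kept a peak in 3 control libraries and in 0 knockdown libraries. This follows from the percentiles above, which lie on either side of 50, and is not separate evidence. With lists cut to an equal number of peaks by score, NDUFC1 had a peak in 5 libraries and was no longer called by score percentile.

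NDUFA7, an accessory subunit of the arm that reaches into the matrix, had 1 region 9936 bases from its start. It had a peak in control replicate 2, at a percentile of 2.8, and in all knockdown libraries, at 46.1, 49.9 and 31.2. With lists cut to an equal number of peaks by score the control peak was lost, and the gene was listed in 3 knockdown and 0 control libraries. NDUFA9, which helps to hold the matrix arm to the membrane arm, had a peak in control replicates 2 and 3 at percentiles of 7.0 and 15.8, in separate places. NDUFB6, of the membrane arm, had one at its start in control replicates 1 and 3, at 21.4 and 3.5. Thus no peak of NDUFA9 or NDUFB6 lay above a percentile of 21.4, and the difference falls below 2 libraries without either control library that has one.

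The assembly factors help to build complex I and are not part of the finished enzyme. Of the 8 genes, NDUFAF2 and NDUFAF6 had a peak in all 6 libraries, NDUFAF5 in 5, NDUFAF4 in 1 and the others in none. NDUFAF2 had 2 peaks in every library, 1 over its start and 1 centred 127964 bases downstream. Its highest peak lay at 88.6, 84.5 and 74.7 in the control and 92.7, 80.0 and 79.9 in the knockdown libraries, and the groups overlapped. NDUFAF6 had 3, 1 and 1 peaks in the control and 6, 2 and 1 in the knockdown libraries, the 6 in knockdown replicate 1, the library with the most peaks. Its percentiles were 52.9, 29.98 and 58.7 in the control and 99.9, 30.8 and 31.2 in the knockdown libraries. The 99.9 came from a region over the gene start found in knockdown replicate 1 alone. The 30.8 came from chr8:94957995-94958179 and the other values from chr8:95024986-95025205.

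In complex II, succinate dehydrogenase, peaks were confined to the catalytic subunits among the 4 genes. SDHA, the flavoprotein that oxidises succinate, had 3, 2 and 3 peaks in the control and 4, 2 and 2 in the knockdown libraries. Its highest peak lay at 96.0, 88.3 and 79.0 in the control and 92.7, 76.1 and 82.9 in the knockdown libraries (87.8 ± 8.47 and 83.9 ± 8.35, SD, n = 3; exact permutation p = 0.7). These values come from different places in the gene. The 96.0 came from a region at chr5:256334-256700 found in control replicate 1 alone, and the 79.0 from the second region below. The peak over its start, from 79 bases before to 98 bases after it, was found in all 6 libraries. It lay at 84.6, 88.3 and 64.4 in the control and 92.7, 76.1 and 82.9 in the knockdown libraries. A second region, at chr5:223482-223568, was found in each control library, at 68.6, 71.2 and 79.0, and also in knockdown replicate 1, at 74.1. SDHA has pseudogene copies of high similarity, and how the authors placed reads that match several copies is not given in the sources used here. SDHB, the iron-sulphur subunit, had 0, 2 and 0 peaks in control and none in knockdown libraries. A region over its start, at chr1:17053948-17054170, had a peak in control replicates 1 and 2 and in all 3 knockdown libraries, but the peak midpoints mostly lay before the annotated start, so that SDHB had a peak in 5 libraries when any overlap counted. No library listed a peak in SDHC or SDHD, which anchor the enzyme in the membrane and complete its quinone site.

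In complex III, which passes electrons from ubiquinol to cytochrome c, 2 small subunits carried peaks in all 6 libraries. UQCR11 had 2, 3 and 2 peaks in the control and 3, 2 and 2 in the knockdown libraries, with 1 over its start in each. Its highest peak lay at 82.2, 70.6 and 58.5 in the control and 79.0, 77.8 and 77.3 in the knockdown libraries, and the knockdown values lay within the control range. The 82.2 and the 79.0 came from a region centred 6120 bases from the start, and the other values from the start peak. UQCR10 had 2 peaks in each library, near its start and near its 3′ end. Its percentiles of 79.4, 62.8 and 51.6 in the control and 68.4, 76.5 and 73.5 in the knockdown libraries overlapped in the same way. Of the catalytic subunits, CYC1 (cytochrome c1) had no peak and UQCRFS1, the Rieske iron-sulphur protein, was assigned a peak in control replicate 2 and knockdown replicates 2 and 3.

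In complex III the assignment turned on peaks that crossed the annotated gene start. Over the UQCRFS1 start a peak was in fact found in all 6 libraries, but it began 45 to 390 bases before the annotated start, and its midpoint fell inside the gene in 3 libraries. UQCRC1, a core protein of the matrix side, had a midpoint inside the gene in knockdown replicates 1 and 3, at 92.7 and 93.2. A region across its start, at chr3:48609552-48610037, had a peak at the tied score of 3100 or above in the 3 control libraries and in knockdown replicates 2 and 3. With any overlap counted, UQCRC1 and UQCRFS1 each had a peak in all 6 libraries, and the difference of UQCRC1 between the groups was 0. In all, 10 members gained libraries with overlap allowed at either end of the gene span, also COX6B1 (from 4 to 6), NDUFS7 and SDHB (from 1 to 5) and UQCRHL (from 2 to 5). Which end the peaks crossed was not examined for every gene. UQCRHL is a copy of UQCRH close in sequence, so peaks in either are uncertain. The number of members with a peak then rose from 53 to 55, and of those with one in all 6 libraries from 25 to 28.

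In complex IV, cytochrome c oxidase, the nuclear subunits surround a catalytic core that mitochondrial DNA encodes, and several have tissue-specific isoforms. Of the 10 isoforms used in most tissues, 6 had a peak in any library and 3 in all 6, while of the 6 tissue-restricted isoforms (COX4I2, COX6A2, COX6B2, COX7A1, COX7B2 and COX8C) COX6B2 had a peak, in 4 libraries. COX5A had 2, 2 and 3 peaks in the control and 2, 3 and 2 in the knockdown libraries, and its peak over the start reached the tied score in every library. COX7C had 2, 2 and 1 peaks in the control and 1, 2 and 2 in the knockdown libraries, with its highest peak at 86.1, 88.7 and 67.1 and at 79.2, 79.7 and 80.3. COX4I1, the common form of subunit 4, which takes part in regulation by ATP, had 1 peak in each library, with the same ends in all 6. It lay at 84.7, 71.2 and 73.1 in the control and 72.7, 72.4 and 59.0 in the knockdown libraries (76.3 ± 7.31 and 68.1 ± 7.85, SD, n = 3; exact permutation p = 0.4). COX7A2L, which joins complexes III and IV into supercomplexes, had no peak.

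In ATP synthase, 4 of 20 genes had a peak in all 6 libraries: the F1 subunit delta (ATP5F1D), coupling factor 6 of the peripheral stalk (ATP5PF), the inhibitor that blocks ATP hydrolysis (ATP5IF1) and ATP5MC2. ATP5MC2 is 1 of 3 genes that encode the same mature subunit of the rotating c ring, and of the others ATP5MC3 had a peak in 5 libraries and ATP5MC1 in none. The catalytic F1 subunits alpha and beta were seldom or never listed, with a peak in 2 libraries for ATP5F1A and in none for ATP5F1B. ATP5IF1 had 2, 2 and 1 peaks in the control and 2, 1 and 1 in the knockdown libraries, within a region that spanned 1738 bases of this 1977-base gene. ATP5F1D had 1 peak in each library, a 512-base region with the same ends in all 6. ATP5PF had 2 peaks in each library, and its highest lay at 75.7, 79.3 and 67.3 in the control and 70.4, 79.2 and 76.6 in the knockdown libraries, overlapping. The 75.7 came from the peak centred 5937 bases from its start, and the other values from the one centred at 322 bases. ATP5MJ, a small membrane subunit, had a peak in 5 libraries at 3 different places, and the one centred 394 bases from its start was found in knockdown replicates 2 and 3 only.

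ATP5F1D, ATP5IF1, COX5A, NDUFB11 and NDUFS6 had their highest peak at the tied score or above in all 6 libraries. These were 5 of the 25 members with a peak in all 6 libraries (20%), beside 13.5% of the 5883 genes. For each of them the percentiles were 96.0, 94.8 and 93.2 in the control and 92.7, 94.0 and 93.2 in the knockdown libraries, values set by how many peaks of a library share the tie, and no difference between the groups can be read from them. Over all 25 members the percentile was lower on average in knockdown cells in 16 and higher in 9, with a median difference of -1.36 beside -0.27 over the 5883 genes. The value of -1.36 is that of the 5 tied genes. Over the other 20 members 11 were lower and 9 higher, with a median of -0.59, beside 0.98 over all genes outside the tie.

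**Figure D3:**
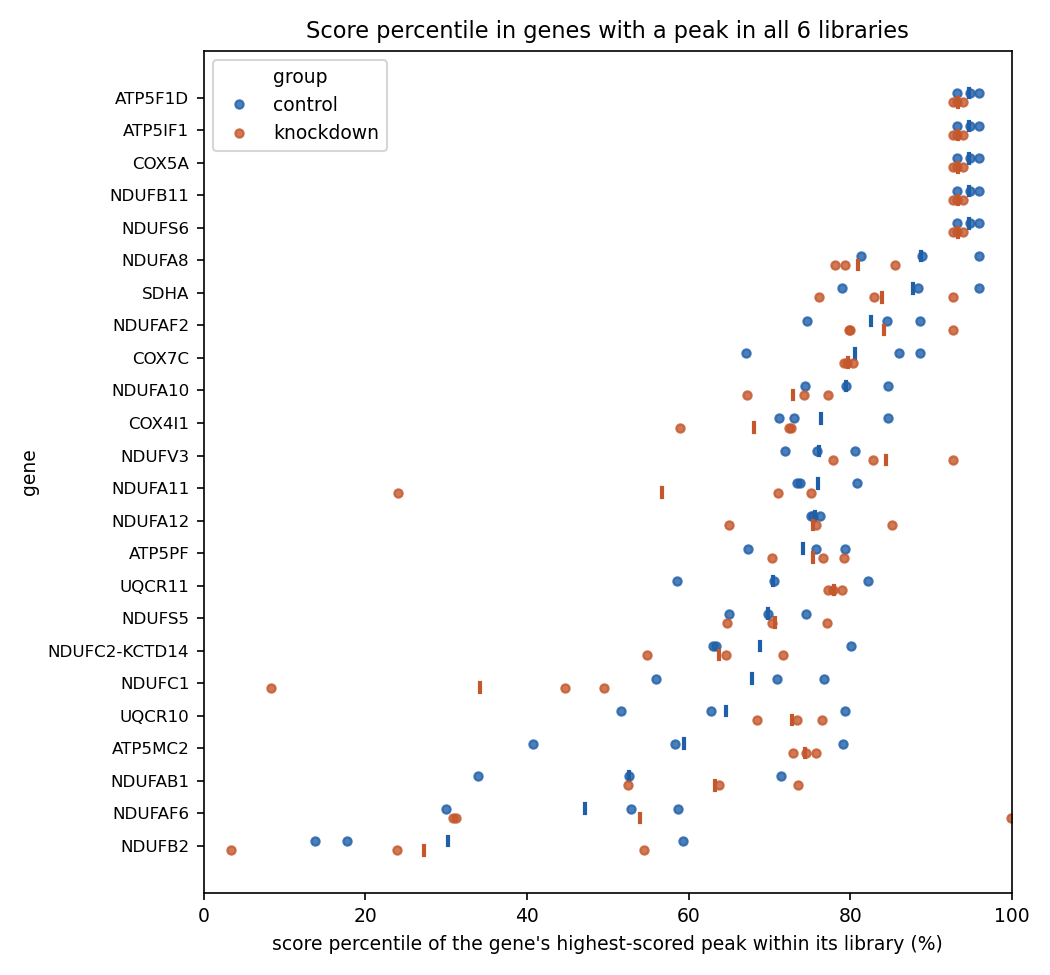
Score percentile (%) of the highest-scored peak of 24 of the 25 genes with a peak in all 6 libraries, ordered by control mean. Points are single libraries and short vertical lines the mean of 3 control (blue) or 3 knockdown (orange) libraries. The highest-scored peak of a gene can lie in different regions in different libraries. NDUFC1 is the gene where all knockdown points lie left of all control points, and the 5 genes at the top sit at the tied score.

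The read-through gene NDUFC2-KCTD14 had a peak in all 6 libraries, but its peaks lay beyond NDUFC2, which had none. Their place was within the span of KCTD14, whose strand could not be set here.

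Genes outside the rule that serve the same pathway, such as assembly factors of complexes II to V, cytochrome c and regulators of mitochondrial genes, were described from a list of 56. A peak was found in any library in 44 (78.6%) and in all 6 in 13 (23.2%), and none was specific to a group. At least 2 more control libraries had a peak in 6 of the 44 (13.6%, beside the 4.16% over all genes): CYCS (cytochrome c), TFAM (which packages and transcribes mitochondrial DNA), the complex III assembly factors BCS1L, LYRM7 and UQCC3, and NUBPL, which delivers iron-sulphur clusters to complex I. Each of the 6 was listed in every control library and in 1 knockdown library, which was replicate 1, the library with the most peaks, in all but UQCC3. Knockdown replicates 2 and 3 held 17877 and 19047 peaks, and the part of peak number or depth in this count was not tested. The count was 6 with lists cut to an equal number of peaks by score, a cut that does not equalise depth. With the higher-scored 50% of each list it was 3. The share over all genes was not computed under these cuts, so the 4.16% does not apply to them. In the other direction 1 of the 44 was called (2.27%, beside 3.51% over all genes). This was GABPB1, a subunit of a transcription factor for respiratory chain genes, listed in 1 control and 3 knockdown libraries.

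Of the 13 genes of this list with a peak in all 6 libraries, score percentiles lay higher in every knockdown library in 2 and lower in 1. ECSIT, a complex I assembly factor, lay at 41.7, 65.2 and 43.2 in the control and 83.2, 79.4 and 73.4 in the knockdown libraries. TACO1, which is needed to translate the mitochondrial mRNA for COX1, lay at 41.5, 43.3 and 2.56 in the control and 45.3, 48.2 and 56.9 in the knockdown libraries. PPARGC1B, a transcriptional coactivator of mitochondrial genes, lay lower in knockdown cells, at 63.4, 68.0 and 60.8 in the control and 44.4, 30.1 and 26.7 in the knockdown libraries. With all groups fully separated each gene reaches an exact permutation p of 0.1 at best, and of the 5883 genes with a peak in all 6 libraries 4.9% met the call for higher and 4.59% the call for lower.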

How the data were processed

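acRIP-seq peak lists of 3 control and 3 NAT10-knockdown SW620 libraries were used. The authors called peaks in each library without pooling replicates, and deposited lists limited to mRNA, with names as MACS gives them and a score per peak that starts at 50 and reaches 3233.06. The submitters' processing notes name GRCh38. Aligner, caller settings and versions are not given in the sources used here. The score was used only as a rank within a library.

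Gene spans came from RefSeq (GRCh38.p14) and strands from its promoter table, which lists 78 of the 97 members. Elsewhere a gene took the strand of at least 90% of the peaks in its span alone, a rule right for 99.6% of 9274 genes of known strand. This set 7 members, 10 had no peak on either strand, and 2 stayed unset. Of all peaks, 96.1% had their midpoint in a gene on the same strand.

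Groups were compared by two-sided exact permutation tests, Fisher's exact test and counts of non-overlapping groups, with Benjamini-Hochberg adjustment over complexes. The members and lists were chosen with earlier results of these data known. Genes were named where called, where at least 2 libraries differed, or where they had the most peaks of their complex (3 each among those with a peak in all 6 libraries, and all of complex II). Members were otherwise named by their number of libraries, and genes of the wider pathway where called. 1 member entered the counts but is not reported here by name or in the plots of single genes. The code was tested on simulated data. Python 3.11.15, numpy 2.4.6, pandas 2.3.3 and scipy 1.17.1 were used.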

Additional observations from a re-analysis of the deposited data

How the results depend on the processing

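None of the 4 comparisons over libraries or the 6 by complex passed the 0.05 threshold under any setting run, which the exact tests cannot reach in this design, so they say nothing about stability. With any overlap of a peak with the gene span, the difference (knockdown minus control) was 0 for genes with a peak, 0.33 for peaks, -1.40 for the median score percentile and 0.33 for complex II genes. Leaving out single libraries gave differences from -3.33 to 1.67 for genes with a peak, -5.5 to 3 for peaks, -0.0364 to 1.04e-05 percentage points for the share and -1.73 to 5.19 for the median score percentile. By complex they ran from -2.33 to -0.83 for complex I, -0.5 to 0 for complex II, 0.83 to 2.33 for complex III, -0.67 to -0.17 for complex IV, -1.17 to 0.83 for complex V and -0.5 to 0.5 for the assembly factors. The sign for genes with a peak turned without control replicate 2 or knockdown replicate 2, and for peaks without these or knockdown replicate 3. It turned for the median percentile without control replicate 3 or knockdown replicate 1. The difference in share was nil in effect without knockdown replicate 1 (1.04e-05 percentage points) and negative without any other single library. Genes called by presence rose from 0 to 1 with the higher-scored 50% of peaks (NDUFC1) and to 1 with the same number of peaks per library (NDUFA7), and to 4 with a difference of at least 2 libraries. Regions called by presence rose in the same settings from 0 to 1 (NDUFC1), 1 (NDUFA7) and 5. Without single libraries both counts ran from 0 to 2. Genes called by score percentile fell from 1 to 0 with the 50% highest-scored peaks, with the same number of peaks and with peaks on either strand, where the NDUFC1 difference turned to 4.60. Without single libraries they numbered 3 to 10, with 10 without control replicate 3, 5 of them the tied genes. A gene separated with all libraries stays separated when any 1 is left out, so NDUFC1 had to be among them each time. Fewer libraries separate more readily, and the share over all genes was not computed for these splits, so the counts show neither stability nor added calls. Of the wider pathway genes, those with at least 2 more control libraries fell from 6 to 3 with the 50% highest-scored peaks, and those with at least 2 more knockdown libraries went from 1 to 2 there and to 0 with the same number of peaks, with no share over all genes computed beside these counts. These settings for the wider pathway, and the use of genes with a listed strand only, were chosen after seeing the data, and the latter changed no count of calls. With it, members whose strand came from their own peaks dropped out, such as ATP5F1D and NDUFAF6, each going from 6 libraries with a peak to 0. The replicate numbers did not pair the libraries (correlations of 0.029, 0.0035 and 0.032 between the deviations of same-numbered libraries), and with replicate number as a block the exact sign-flip p was 1 for genes (difference -1), 1 for peaks (-0.67), 0.75 for the share (-0.0203) and 0.75 for the median percentile (1.63). Depth is unknown, so a gene without a peak may lack reads or the modification, which cannot be told apart.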
